A study of Rattus norvegicus with 49 samples.

Results

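Transcript levels of 6 genes of glucocorticoid signalling were followed in the CA1 region of the rat hippocampus from young adulthood to old age. The genes were the receptor genes Nr3c1 and Nr3c2, the enzyme gene Hsd11b1, and the response genes Fkbp5, Sgk1 and Tsc22d3. They were chosen by gene symbol in the platform annotation, which names 10411 genes with a probe set of their own, and have 7 probe sets among the 15923 of the Affymetrix RAE 230A array, 2 for Nr3c1 and 1 for each other gene. These are the probe sets 1368221_at and 1368222_at for Nr3c1, 1368476_at for Nr3c2, 1386953_at for Hsd11b1, 1388901_at for Fkbp5, 1367802_at for Sgk1 and 1367771_at for Tsc22d3. All 7 were among the 9541 probe sets, of 8094 genes, that passed the filter of a signal of at least 100 on at least 5 arrays. The second Nr3c1 probe set, 1368222_at, reached 100 on only 6 of the 49 arrays, and every other one did so on all 49.

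The animals were Fisher 344 rats aged 3, 6, 9 and 12 months (n = 9 each) and 23 months (n = 13), and the labels give no treatment or genetic change. All of them had been tested in a water maze and were killed within about a day of the last session, per the series' design text. Maze training is itself a handling and swimming experience for every group, and no untrained animals were among the samples. RNA of the left CA1 of each animal went to an array of its own, so the spread between arrays holds the spread between animals.

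Corticosterone, the main glucocorticoid of rats, is released by the adrenal gland in a daily rhythm and after stress, and acts in CA1 neurons through a pair of related nuclear receptors. The mineralocorticoid receptor, encoded by Nr3c2, binds the hormone tightly and is largely occupied at rest, while the glucocorticoid receptor, encoded by Nr3c1, binds it less tightly and becomes occupied when the hormone rises. The bound receptors move to the nucleus and raise or lower the transcription of target genes, among them Fkbp5, Sgk1 and Tsc22d3. Hsd11b1 encodes an enzyme that regenerates active corticosterone from its inactive 11-keto form inside cells. The hippocampus is rich in both receptors and takes part in shutting down the hormonal stress response.

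Signals were on a like scale in all animals, with array medians of 208 to 224.9 and 10186 to 10924 probe sets at or above 100. Marker genes of cell types were read as a description of the tissue. The 9 tested CA1 pyramidal cell markers had a mean log2 signal of 10.81 to 11.33 on every array, and the 5 tested dentate granule cell markers one of 8.34 to 9.57. The 6 tested CA2 and CA3 markers had one of 9.18 to 9.76. Signals of different probe sets are not on a common scale and no other tissue was among the samples, so these levels do not settle tissue identity. Transthyretin (Ttr), a choroid plexus transcript, had a signal of 3908 to 16309.8 on 5 arrays, 4 of 3 months and 1 of 23 months, and of at most 1123.4 on the other 44. At 23 against 3 months 9 of 11 microglial markers and 3 of 9 astrocyte markers were higher in limma's test, and 1 of 9 CA1, 1 of 9 neuronal and 1 of 8 oligodendrocyte markers was lower. Over all probe sets 2.15% were higher and 0.975% lower. A single lower gene says nothing about a cell type as a whole. The median log2 difference of the tested markers was 0.55 for microglia and 0.07 for astrocytes. It was −0.12 for CA1, 0.0037 for neurons and −0.06 for oligodendrocytes. In tissue RNA of this kind, a change in the number of cells of a type and in the RNA per cell cannot be told apart.

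Among the 6 genes, Sgk1 was the only one whose level changed with age in any of the tests, and it did so in the test of a straight line over months alone. None of the 7 probe sets passed an adjusted p of 0.05 in limma's contrast of 23 against 3 months, where 298 of 9541 probe sets (3.12%) did. None passed in the contrasts of 12 (0.199% of all probe sets), 9 (0.0524%) or 6 months (0.0105%) against 3 months, of 23 against 12 months (0.283%), or in the F-test over 5 ages (1.77%). At an unadjusted p under 0.05 the contrast of 23 against 3 months held 1387 probe sets (14.5%), of which Sgk1 was the only one of the 7. In the test of a linear slope 5.05% of all probe sets passed, 300 rising and 182 falling, and Sgk1 was 1 of the 300 (3.14% of all, and 1.91% for falling slopes). With so few genes this share is no result about the group.

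**Figure D1:**
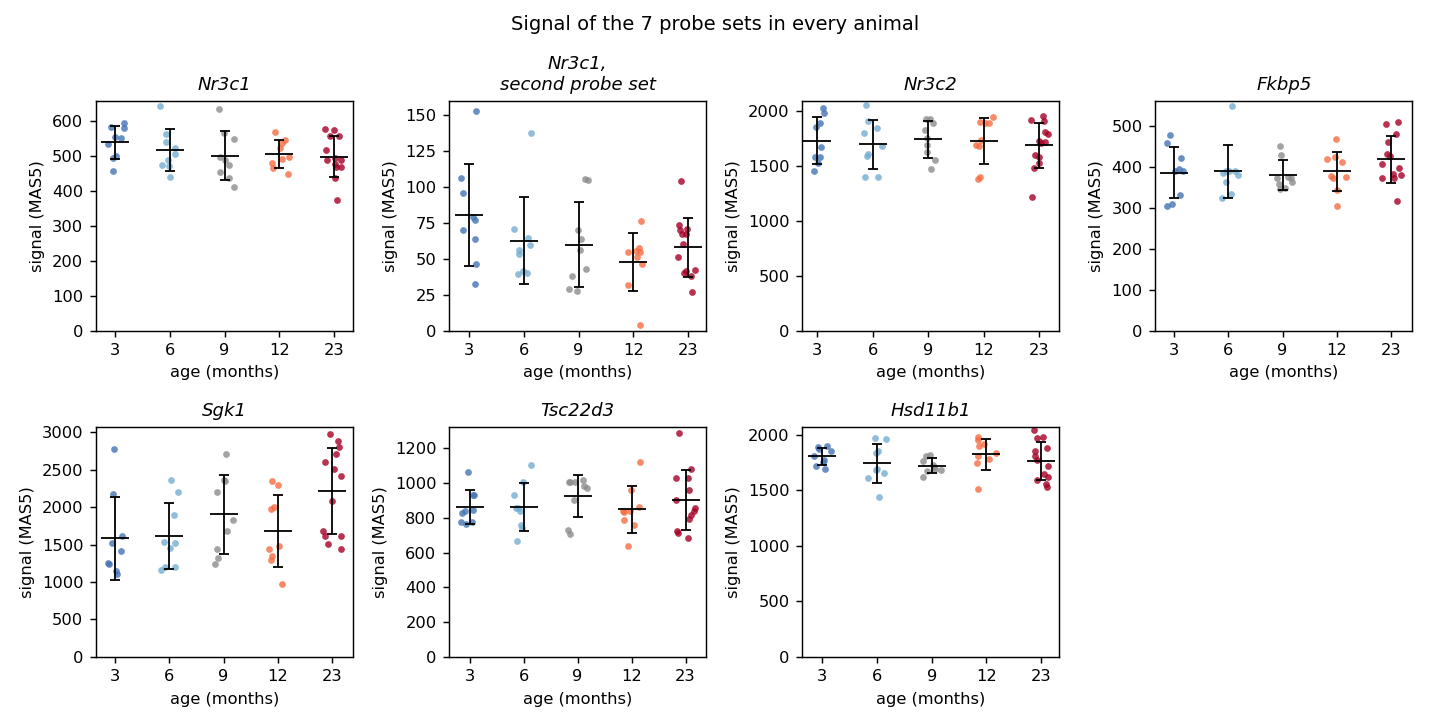
Signal of the 7 probe sets (MAS5 signal, linear scale from 0) in each of 49 animals by age in months. Points are animals, long bars are means and whiskers are 1 SD (n = 9, 9, 9, 9 and 13). The ages overlap in every panel, and the 23-month animals of Sgk1 have the highest mean, 2215.

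The levels of both receptors differed little between ages. Nr3c1, the glucocorticoid receptor, had a signal of 456 to 594.6 at 3 months (median 552.1) and of 372.7 to 578.4 at 23 months (median 489.6). At 6, 9 and 12 months it lay between 440.1 and 644.5 (median 505.7), 412.1 and 633.2 (median 489.6), and 448 and 568.8 (median 497.5). The youngest group stood highest on average, at 539.1 ± 47.1 (SD, n = 9) against 498.2 ± 59.1 (SD, n = 13) in the oldest, and the ranges overlapped, since 4 of the oldest 13 exceeded the average of the youngest.

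The difference of Nr3c1 at 23 against 3 months was −0.12 on the log2 scale (95% interval −0.26 to 0.02), which did not pass (limma adjusted p = 0.454). The bounds of the interval are a fall of 1.20-fold and a rise of 1.01-fold. The second probe set of Nr3c1 was dim. Its mean signal was 80.5 ± 35.4 at 3 months, 48.0 ± 20.2 at 12 months and 58.0 ± 20.7 at 23 months, mostly below the filter's signal of 100, and its log2 difference at 23 months was −0.43 (−0.96 to 0.10, limma adjusted p = 0.478). At 12 against 3 months it was −0.69, with an unadjusted p of 0.020 and an adjusted p of 0.535. Both probe sets of the gene had lower means at every later age than at 3 months, and neither passed at any of them.

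Nr3c2, the mineralocorticoid receptor, ranged from 1452.5 to 2030.8 at 3 months (median 1669.3) and from 1218.3 to 1952 at 23 months (median 1716.6). The group means lay between 1688 ± 206 (SD, n = 13) at 23 months and 1742 ± 168 (SD, n = 9) at 9 months, a distance smaller than the SD of any age. The log2 difference at 23 against 3 months was −0.04 (−0.19 to 0.11, limma adjusted p = 0.880), so a change of over 1.14-fold in either direction lies outside the interval. Of the 13 old animals, 5 stood above the 3-month mean.

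Hsd11b1, which raises the active hormone inside cells, had the smallest relative spread of the 6 genes, a coefficient of variation of 7.76% over the 49 arrays. Its signal was 1695 to 1898.9 at 3 months (median 1809.3) and 1528.4 to 2041.5 at 23 months (median 1778.1). The old animals were spread to both sides of the young ones, 3 above the highest and 5 below the lowest of them. At 9 months all animals lay between 1619.4 and 1816.3. The log2 difference at 23 against 3 months was −0.04 (−0.14 to 0.06, limma adjusted p = 0.812), and the bound nearest to a change was 1.10-fold.

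Of the response genes, Fkbp5 and Tsc22d3 had no difference that passed. Fkbp5 encodes a co-chaperone that binds the receptor complex and lowers its affinity for hormone, and its own transcription rises with hormone, which makes it part of a negative feedback loop. Its signal was 303.4 to 477.5 at 3 months (median 390.4), 322.3 to 548.3 at 6 months (median 384.2), 344.3 to 451.3 at 9 months (median 371.2) and 304.7 to 467 at 12 months (median 377.6). At 23 months it was 316.7 to 508.6 (median 407.1), with 3 of 13 animals above the highest 3-month animal. The 4 younger groups had means between 379 and 389, and the oldest 418 ± 57.2 (SD, n = 13). The log2 difference of 0.12 (−0.05 to 0.29) did not pass at 23 against 3 months (limma adjusted p = 0.548), nor did the slope over months (adjusted p = 0.355, unadjusted 0.076).

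Tsc22d3 encodes the leucine zipper protein GILZ, which carries part of the anti-inflammatory action of glucocorticoids. Its signal was 765.1 to 1061.4 at 3 months (median 841), 668.3 to 1105.9 at 6 months (median 853.6), 706.4 to 1018.1 at 9 months (median 983.6) and 636.3 to 1121.1 at 12 months (median 841.2). At 23 months it was 682.5 to 1289.8 (median 855.6), the widest range, with 2 animals above and 3 below all 3-month animals. The log2 difference at 23 against 3 months was 0.05 (−0.14 to 0.23, limma adjusted p = 0.871), and changes of over 1.18-fold lie outside the interval.

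Sgk1 encodes the serum and glucocorticoid regulated kinase, which acts on ion channels, transporters and transcription factors and is induced within minutes to hours by corticosteroids and other stimuli. At 3 months its signal was 1104.7 to 2770.4 (median 1410.2), at 6 months 1157.1 to 2366.5 (median 1525.6) and at 9 months 1238.7 to 2711.6 (median 1822.6). At 12 months it was 976.8 to 2353.5 (median 1483.5) and at 23 months 1435.6 to 2970.6 (median 2410.3). The highest animal of each age had more than 2 times the signal of the lowest, and the ages overlapped.

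Among the oldest animals 5 lay between 1435.6 and 1675.1, and the other 8 lay between 2081.5 and 2970.6. All 13 stood above the 3-month median, 11 above the 3-month mean and 3 above the highest 3-month animal. The mean was 1581 ± 553 (SD, n = 9) at 3 months, 1616 ± 445 at 6, 1903 ± 524 at 9, 1684 ± 483 at 12 and 2215 ± 579 (SD, n = 13) at 23 months. The order of the means did not follow age, since 9 months stood above 12 months, and neighbouring ages up to 12 months differed by less than the SD of either.

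The log2 difference of Sgk1 at 23 against 3 months was 0.50 ± 0.165 (SE), or 1.42-fold (95% interval 1.13 to 1.78). It did not pass (limma unadjusted p = 0.0036, adjusted p = 0.080). Of tested probe sets 98.9% had a smaller difference, a rank that takes no account of the spread between animals. The dim second Nr3c1 probe set ranked nearly as high, at 98.4%. The difference at 23 against 12 months was 0.40 (unadjusted p = 0.018, adjusted p = 0.450) and that at 9 against 3 months 0.28 (adjusted p = 1.00). The contrasts against 3 months share the same young animals. As a straight line over months the level rose by 0.49 on the log2 scale per 20 months (0.20 to 0.78, limma adjusted p = 0.034).

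The slope call was lost under several settings. It did not pass with the replicate number of the labels as a block (adjusted p = 0.0731) or with no filter on low signals (adjusted p = 0.0631). It was also lost when any 1 of 11 arrays was left out (3 months replicates 3, 4, 5 and 8 and 23 months replicates 6, 7, 8, 11, 13, 14 and 15, adjusted p of 0.0509 to 0.0704), and without the 5 arrays of high Ttr signal (adjusted p = 0.119), while the slope stayed between 0.022 and 0.027 per month. In the other direction, the contrast of 23 against 3 months passed without 3 months replicate 2, which had the highest young signal (0.61, adjusted p = 0.0197), or without replicate 6 (0.57, adjusted p = 0.0476).

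**Figure D2:**
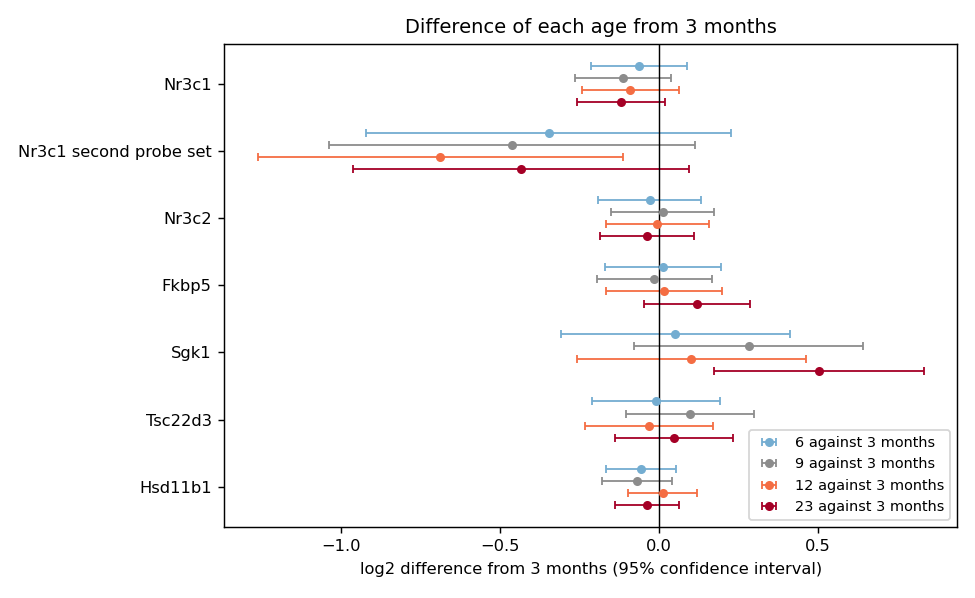
Log2 difference of each older age from 3 months for the 7 probe sets, with 95% confidence intervals from limma. All intervals of Nr3c2, Fkbp5, Tsc22d3, Hsd11b1 and of the brighter Nr3c1 probe set include 0, and that of Sgk1 at 23 months runs from 0.17 to 0.84 (not called after adjustment over 9541 probe sets).

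Sgk1 stood out by how much animals of the same age differed from one another. Its SD of log2 signal within ages was 0.411. Of 990 other probe sets whose mean log2 signal lay within 0.5 of that of Sgk1, only Enpp2 had a larger one (0.453), and their median was 0.129. Enpp2 is a gene of the choroid plexus, and was on the list of its markers. The coefficient of variation of the Sgk1 signal was 35.0% at 3 months and 26.1% to 28.7% at the other ages, so the wide spread was present in every group and not in the oldest alone.

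The other genes were closer to probe sets of like level. The within-age SD was 0.161 for Nr3c1, 0.178 for Nr3c2, 0.196 for Fkbp5, 0.224 for Tsc22d3 and 0.114 for Hsd11b1. Probe sets of like level with a smaller SD made up 47.8%, 83.2%, 63.2%, 91.6% and 32.6%, in the same order. Tsc22d3 was thus the next most variable for its level, and Hsd11b1 varied less than most. These ranks are descriptions of these arrays with no test.

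**Figure D3:**
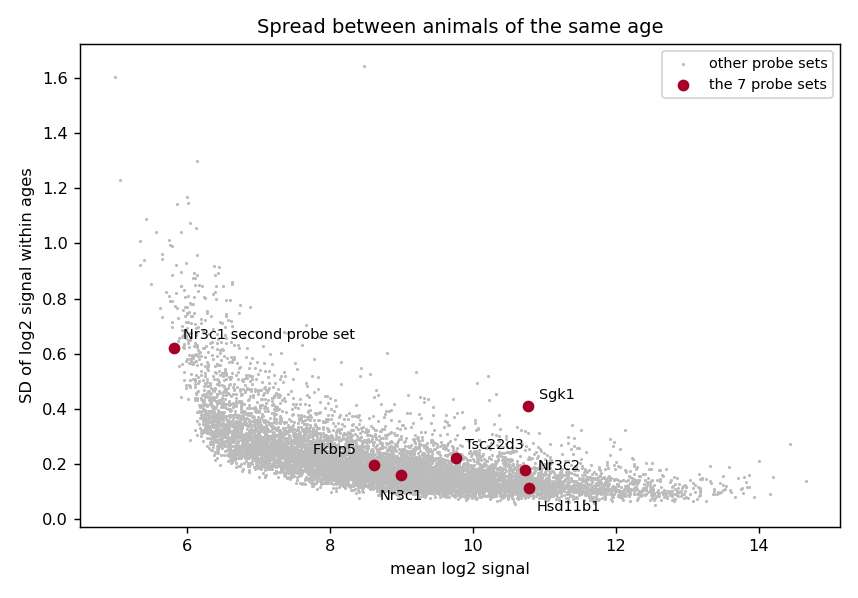
SD of log2 signal within ages against mean log2 signal for the 9541 probe sets tested (grey) and the 7 probe sets of the 6 genes (red). Sgk1, at 0.411, stands above nearly all probe sets of like signal, and the other 5 genes lie inside the cloud.

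The animals that were high in Sgk1 for their age tended to be high in some other genes known to be induced by glucocorticoids. Of these, Nfkbia alone passed in a test on 44 arrays with the replicate number removed as well. Each animal was expressed as its deviation from the mean of its age, and all 8093 other genes were ranked by their Pearson correlation with Sgk1 over the 49 arrays. The first 3 were Ddit4 (r = 0.65), an inhibitor of the growth kinase mTORC1, Errfi1 (r = 0.63), a feedback inhibitor of epidermal growth factor receptor signalling, and Nfkbia (r = 0.60), the inhibitor that holds NF-κB in the cytoplasm. Each of these was on a list of 38 textbook glucocorticoid-induced genes, of which 26 were tested. Zfp189 (r = 0.59) and Vps35 (r = 0.57) followed and were not on it.

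Correlations of all 26 tested list genes with each of the 6 genes were then computed, a step added after these neighbours had been seen, which makes 156 relations. Adjustment over the 156 does not cover the first search among 8093 genes, on the same arrays, in which Ddit4, Errfi1 and Nfkbia were found. With Sgk1, 4 list genes passed a two-sided permutation test (100000 resamples of arrays within ages, Benjamini-Hochberg over 156 relations). These were Ddit4 (p = 1e-05, the smallest the resamples can give, adjusted p = 0.00078) and Errfi1 (adjusted p = 0.00078). Nfkbia (adjusted p = 0.00104) and Plekhf1 (r = 0.48, adjusted p = 0.0296), which encodes an endosomal and lysosomal adaptor, also passed. Spearman's rho was 0.72, 0.61, 0.61 and 0.47 for Ddit4, Errfi1, Nfkbia and Plekhf1 (permutation adjusted p of rho = 0.00078, 0.00104, 0.00078 and 0.0421). The sign was positive within each of the 5 ages for all 4 genes. Without the 2 arrays farthest from the median of the list gene, chosen for each gene apart, the coefficients were 0.64, 0.60, 0.59 and 0.48 in the same order. The arrays most extreme in Sgk1 itself were not left out in this way.

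The replicate numbers of the labels ran through these values across ages. Replicate 3 lay below the mean of its age in Sgk1, Ddit4 and Errfi1 at all 5 ages, by 0.27 to 0.73 on the log2 scale in Sgk1. Replicate 1 lay above it in Ddit4 at all 5 ages and in Sgk1 at 4 of 5, and replicate 4 lay below it in Ddit4 at all 5. Of the variance within ages over the 44 arrays whose number occurs at more than 1 age, 63.8% went with the number for Ddit4, 52.6% for Errfi1, 42.1% for Sgk1, 38.5% for Plekhf1 and 23.0% for Nfkbia, where the median of all genes was 25.6%. Among the receptors, 42.2% did so for Nr3c1, in which replicate 1 lay above the mean of its age at all 5 ages, and 22.6% for Nr3c2. The labels do not say what a number shares, and its part in the correlations among animals was tested only as follows.

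With the number removed together with the age means, a step added after the data had been seen, 1 of the 156 relations passed. That was Sgk1 with Nfkbia (r = 0.68, n = 44 arrays, permutation test adjusted p = 0.00468), which was then first of the 8093 genes. The r with Sgk1 fell from 0.63 to 0.49 for Ddit4 (adjusted p = 0.14) and from 0.61 to 0.40 for Errfi1 (adjusted p = 0.33) on the same 44 arrays. That of Plekhf1 was 0.43 without and 0.42 with the block (adjusted p = 0.33). The calls of Ddit4, Errfi1 and Plekhf1 were thus not kept in this test, while that of Nfkbia was. The adjusted p of Nfkbia does not cover the first search among the 8093 genes here either. The 5 arrays left out, whose number occurs at 1 age only, were all of 23 months (replicates 10, 11, 13, 14 and 15). The permutation test was not run on the 44 arrays without the block. For the lost calls, the part of the block and that of fewer arrays therefore cannot be told apart. For the coefficients, Ddit4 and Errfi1 had 0.65 and 0.63 on 49 arrays, and their falls given above were on the same 44. Plekhf1 had 0.48 on 49 arrays and 0.43 on the 44 before the block.

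The values of single animals varied by age and gene. At 9 months, the age with the highest coefficients of Ddit4, Errfi1 and Nfkbia (0.85, 0.84 and 0.80), the animals with the highest Sgk1, replicates 2 and 1, had Ddit4 signals of 715.1 and 739.3, while those with the lowest, replicates 3 and 4, had 538.7 and 454.4. For Nfkbia the same animals had 291.3 and 395.4 against 221.2 and 209.5, and for Errfi1 510.9 and 485.6 against 356.2 and 415.9. At 23 months replicates 6 and 13, the highest in Sgk1, had Ddit4 signals of 618.9 and 627, and replicates 10 and 9, the lowest, had 479.8 and 450. At 12 months the pattern was weaker for Ddit4, at 575 and 632.2 for the highest against 503.2 and 549.2 for the lowest, and its coefficient within that age was 0.21. At 3 months Errfi1 had signals of 495.5 and 426.1 in the highest Sgk1 animals against 436 and 501.4 in the lowest, which shows no such order, and its coefficient was 0.21.

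**Figure D4:**
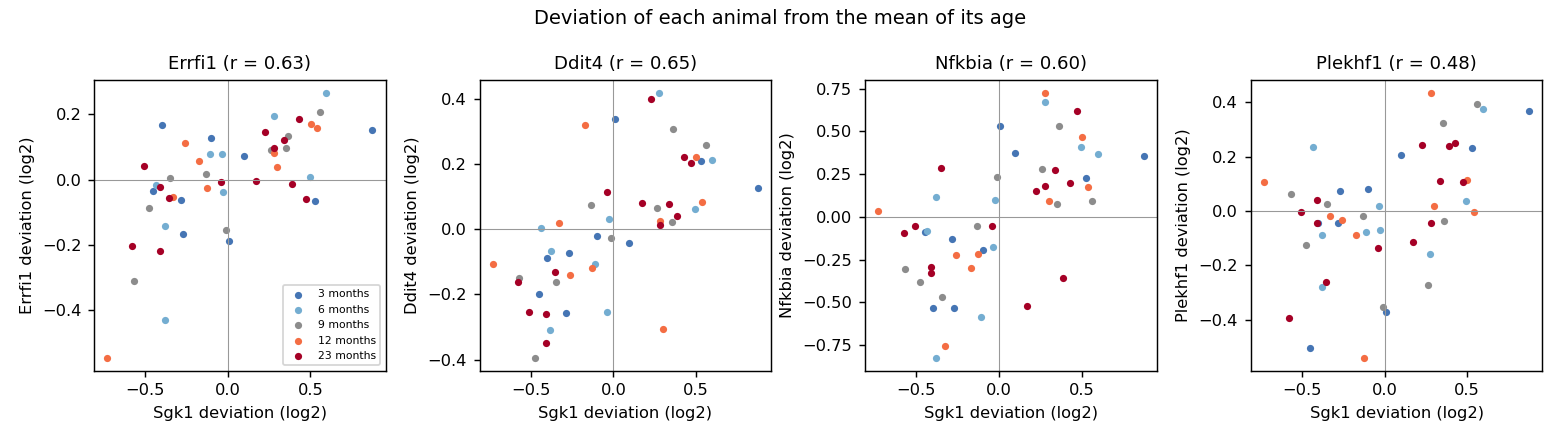
Deviation of each of 49 animals from the mean of its age (log2) for Sgk1 on the horizontal axis and Errfi1, Ddit4, Nfkbia and Plekhf1 on the vertical axes, coloured by age. Over all animals r lies between 0.48 and 0.65. Within single ages it is positive throughout but runs from 0.21 (Errfi1 at 3 months, Ddit4 at 12 months) to 0.85 (Ddit4 at 9 months).

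Over the whole list, 8 of 26 genes (30.8%) had an r over 0.3 with Sgk1, where 2.67% of all 8093 genes did, and the median r was 0.16 against −0.01 over all genes. Besides the 4 above, these were the clock gene Per1 (0.34), the pyruvate dehydrogenase kinase gene Pdk4 (0.34), the transcription factor gene Klf9 (0.31) and the cell cycle inhibitor gene Cdkn1a (0.31), which did not pass. With the replicate number as a block, on 44 arrays, 8 of 26 had an r over 0.3, against 5.83% of all genes, and they were not the same 8. Pdk4 (0.213) and Cdkn1a (0.155) were no longer among them, and Fam107a (0.35) and Angptl4 (0.301) were. Genes of this list are measured on the same arrays and are not independent of one another. An r over 0.3 was not confined to the list. Of 9 tested immediate early genes, described at the end, Junb, Egr2, Fos and Nr4a1 had one too. Egr1, Ier2, Arc, Egr4 and Fosb did not, and the median of the 9 was 0.21. Whether the share is particular to glucocorticoid-induced genes was not tested. Without the 5 arrays of high Ttr signal 3 of the 4 passed, and without the 23-month arrays 3 did, Plekhf1 being the one lost in both.

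The 4 genes that passed with Sgk1 without the block had no difference between ages that passed. The log2 difference at 23 against 3 months was −0.04 for Ddit4, −0.07 for Errfi1, 0.26 for Nfkbia and 0.07 for Plekhf1 (limma adjusted p = 0.909, 0.711, 0.476 and 0.831). Mean Ddit4 signal was 555 ± 76.3 (SD, n = 9) at 3 months and 543 ± 82.7 (SD, n = 13) at 23 months. Nfkbia went from 251 ± 66.4 to 298 ± 67.6 and Errfi1 from 448 ± 41.6 to 425 ± 35.6. Whether these differences are smaller than that of Sgk1 was not tested.

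The other 5 genes had few or no such partners on the list. Fkbp5 and Hsd11b1 had 0 relations that passed, with 4 and 2 at an unadjusted p under 0.05. Tsc22d3 went with Irs2, an insulin receptor substrate gene (r = 0.52, rho = 0.45, permutation test adjusted p = 0.0172, adjusted p of rho = 0.0715), and Nr3c1 went against it (r = −0.47, rho = −0.35, adjusted p = 0.0296, adjusted p of rho = 0.168). Nr3c2 went with Rasd1, a Ras-related gene (r = 0.44, rho = 0.39, adjusted p = 0.0484, adjusted p of rho = 0.111). In rank terms these 3 did not pass, nor with the replicate number as a block. The shares with r over 0.3 were 19.2% of the list for Nr3c1 (7.38% of all genes), 15.4% for Tsc22d3 (5.09%), 11.5% for Nr3c2 (5.03%), 11.5% for Fkbp5 (3.03%) and 3.85% for Hsd11b1 (7.67%).

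**Figure D5:**
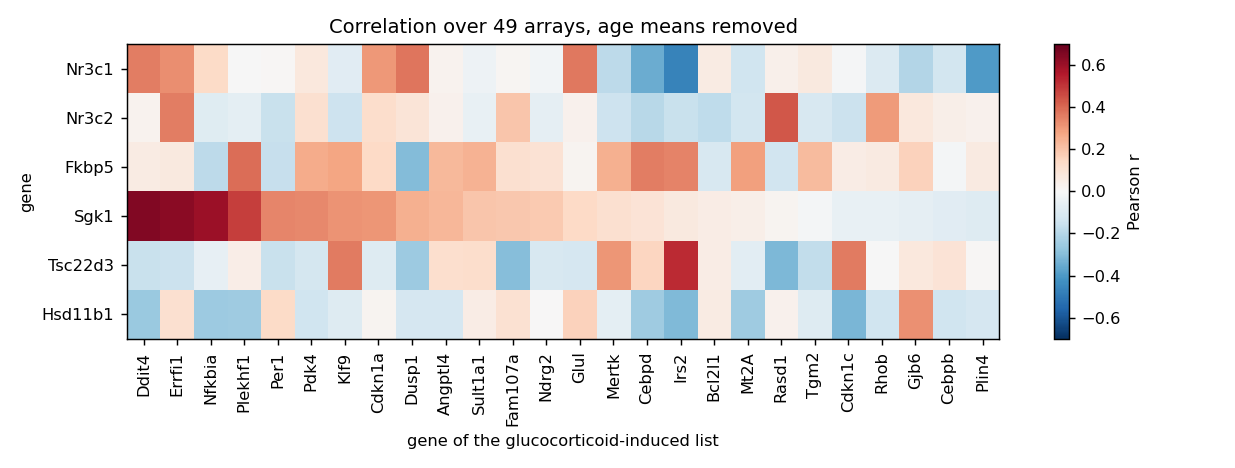
Pearson correlation over 49 arrays, age means removed, of each of the 6 genes (vertical) with the 26 tested glucocorticoid-induced genes (horizontal, ordered by their r with Sgk1). Red is positive and blue negative. The darkest cells are those of Sgk1 with Ddit4, Errfi1 and Nfkbia.

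The start regions of these genes are shown because Ddit4, Errfi1 and Nfkbia were the genes nearest to Sgk1 between animals. Bases are from the RefSeq promoter table of build GRCr8, 5′ to 3′ on the strand of the gene, and each run is the 250 bases before an annotated start. Capitals mark TATAAA, the core of a TATA box. Sgk1 has 3 windows in the table, of which windows 1 and 3 are printed, on the minus strand at chr1:24807232-24807481 and chr1:24804832-24805081. Errfi1 lies on the plus strand at chr5:166606591-166606840 and Ddit4 and Nfkbia on the minus strand at chr20:28437038-28437287 and chr6:78597073-78597322.
Sgk1 window 1: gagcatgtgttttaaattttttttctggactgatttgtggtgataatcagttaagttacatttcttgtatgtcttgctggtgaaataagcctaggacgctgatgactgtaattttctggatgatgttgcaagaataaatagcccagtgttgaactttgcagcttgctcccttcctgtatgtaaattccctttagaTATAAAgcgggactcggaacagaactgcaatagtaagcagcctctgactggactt
Sgk1 window 3: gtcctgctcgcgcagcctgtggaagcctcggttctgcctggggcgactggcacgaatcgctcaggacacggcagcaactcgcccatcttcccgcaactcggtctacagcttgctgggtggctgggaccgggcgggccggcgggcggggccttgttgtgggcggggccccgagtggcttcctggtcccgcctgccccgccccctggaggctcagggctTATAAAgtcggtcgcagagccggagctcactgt
Errfi1: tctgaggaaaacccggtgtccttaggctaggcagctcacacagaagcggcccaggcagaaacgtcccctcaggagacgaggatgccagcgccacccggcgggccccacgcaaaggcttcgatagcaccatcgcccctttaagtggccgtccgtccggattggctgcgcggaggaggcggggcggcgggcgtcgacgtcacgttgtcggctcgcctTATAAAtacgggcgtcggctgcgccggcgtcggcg
Ddit4: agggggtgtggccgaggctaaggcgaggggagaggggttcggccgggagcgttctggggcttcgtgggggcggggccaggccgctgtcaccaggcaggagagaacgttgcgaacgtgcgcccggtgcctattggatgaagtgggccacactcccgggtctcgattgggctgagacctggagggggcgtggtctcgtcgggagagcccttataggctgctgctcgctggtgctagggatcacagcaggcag
Nfkbia: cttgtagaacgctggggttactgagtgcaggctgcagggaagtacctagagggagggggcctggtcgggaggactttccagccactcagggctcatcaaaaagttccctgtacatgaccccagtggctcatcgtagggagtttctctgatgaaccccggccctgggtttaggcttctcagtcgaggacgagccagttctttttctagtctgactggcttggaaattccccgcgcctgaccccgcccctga
TATAAA began 55 and 33 bases before the start in these windows of Sgk1, 35 before it in Errfi1 and 44 before it in window 3 of Tsc22d3. On the other strand, as TTTATA, it began 17 bases after the start of Nfkbia, past the end of the printed run, since the search took in 50 bases after each start. It occurred on either strand in 14.2% of the 33465 windows of the table. The receptor half-site, TGTTCT or on the other strand AGAACA, was in 20.7% of all windows and the palindrome of AGAACA, any 3 bases and TGTTCT in 5 of them. Neither was in a listed window of Nr3c1 (2 windows), Fkbp5 (1), Sgk1 (3) or Tsc22d3 (3), or of Errfi1, Ddit4, Nfkbia and Plekhf1 (1 each), which says only that these letters are not in these stretches. A match is a description of the letters and not a site of action. Nr3c2 and Hsd11b1 are named only.

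Between the 6 genes themselves no correlation passed. Of the 15 pairs, 0 passed a two-sided permutation test over the 49 arrays with age means removed, and 3 had an unadjusted p under 0.05. All 3 were negative and joined a receptor gene with a response gene. They were Nr3c2 with Tsc22d3 (r = −0.39, rho = −0.35, permutation p = 0.00976, adjusted p = 0.0944), Nr3c1 with Tsc22d3 (r = −0.38, rho = −0.36, p = 0.0126, adjusted p = 0.0944) and Nr3c1 with Fkbp5 (r = −0.33, rho = −0.21, p = 0.0213, adjusted p = 0.107). Without the 2 arrays farthest from the median of the first gene, r was −0.29, −0.40 and −0.27. With the replicate number as a block, on 44 arrays, r was −0.402, −0.405 and −0.139 in the same order. The second of these pairs had a negative r within all 5 ages, and the others within 4 of 5.

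Sgk1 had no correlation that passed with either of the other response genes over all ages. The pairs were also computed with the replicate number as a block, where 0 of 15 passed. The r of Sgk1 was 0.19 with Fkbp5 (rho = 0.23, permutation adjusted p = 0.411) and 0.06 with Tsc22d3 (rho = 0.06, adjusted p = 0.846). Within the 23-month animals these were 0.65 (permutation p = 0.0178, adjusted p = 0.133 over the 15 pairs of that age) and 0.55 (p = 0.0527). At 3 months Sgk1 and Tsc22d3 had an r of −0.62 (permutation p = 0.0733). None of these passed.

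Each of the genes had its own nearest neighbours among all 8093 genes. For Nr3c1 they were Gnl2 (r = 0.66), the chloride transporter gene Clcn3 (0.66), the RNA-binding protein gene Hnrnpa2b1 (0.65), Pja1 (0.63) and Ndrg3 (0.63). For Nr3c2 they were Rasgrp3 (0.59), an exchange factor for Ras, Adam23 (0.58), Vps13b (0.57), the nucleolin gene Ncl (0.55) and the tubulin gene Tubb2a (0.54). For Hsd11b1 they were Scamp4 (0.64), Tti2 (0.63), the alarmin cytokine gene Il33 (0.63), Mrps33 (0.62) and Dnajc27 (0.61). Some of these neighbours changed with age where the gene itself did not. Rasgrp3 was higher at 23 than at 3 months by 0.45 on the log2 scale (limma adjusted p = 0.0057) and Il33 by 0.31 (adjusted p = 7.5e-04).

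For Fkbp5 the nearest were Kndc1 (r = 0.57), the phosphoinositide phosphatase gene Mtmr2 (0.53), Insig2 (0.53), which restrains sterol synthesis, Gpd1 (0.52), the cytosolic glycerol-3-phosphate dehydrogenase, and Camkk1 (0.50). For Tsc22d3 they were Sccpdh (0.57), C1h11orf58 (0.57), Cnrip1 (0.56), which binds a cannabinoid receptor, the isocitrate dehydrogenase subunit gene Idh3g (0.56) and Smarca2 (0.55), an ATPase of chromatin remodelling. With the replicate number as a block the neighbours of these 5 genes had an r between 0.36 and 0.65. None of them was on the list of glucocorticoid-induced genes.

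Cell type markers and RNA quality were set beside each gene in the same way, as the mean log2 signal of each of 10 marker lists and the 3′ to 5′ signal ratios of GAPDH and β-actin. Of 72 relations 0 passed and 9 had an unadjusted p under 0.05. The strongest was Tsc22d3 with the CA1 pyramidal list (r = −0.46, rho = −0.41, permutation p = 0.00114, adjusted p = 0.0821). Next came Nr3c2 with the β-actin ratio (r = 0.42, rho = 0.42, adjusted p = 0.112) and Tsc22d3 with the astrocyte list (r = −0.43, rho = −0.39, adjusted p = 0.112). With each array centred on its median these were −0.29, 0.44 and −0.23.

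Sgk1 had an r of 0.25 with the oligodendrocyte list (rho = 0.26, permutation adjusted p = 0.555), of −0.15 with the microglial list (rho = −0.09, adjusted p = 0.667) and of 0.12 with red blood cell genes (rho = 0.12, adjusted p = 0.756). The microglial list itself was higher in the old animals, with a mean log2 signal of 8.58 to 9.43 at 23 months against 8.30 to 8.43 at 3 months. Its part in the age slope of Sgk1 was not tested. Within ages, Sgk1 and the microglial list had an r of 0.08, 0.15, −0.16, 0.46 and −0.59 at 3, 6, 9, 12 and 23 months, so the sign was not shared.

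The other genes of the pathway were taken from 5 lists, described by counts and medians. The receptors wait in the cytoplasm in a complex of heat shock proteins and co-chaperones. Of 13 tested genes of this complex 0 passed at 23 against 3 months, where 3.12% of all probe sets did, and 1 had a falling slope, where 1.91% did. With 1 of 13 this count says nothing about the complex as a whole. The 1 was Fkbp4, which encodes the co-chaperone that competes with the Fkbp5 product and carries the receptor towards the nucleus. Its signal was 836 ± 79.4 (SD, n = 9) at 3 months and 744.5 ± 72.9 (SD, n = 13) at 23 months, a log2 difference of −0.17 (limma adjusted p = 0.115, slope adjusted p = 0.0295), and 0 of 13 old animals stood above the 3-month mean. Ppid, another such co-chaperone gene, differed by −0.15 (adjusted p = 0.110). The median of the list was −0.04, against −0.0013 over all probe sets.

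Of 10 tested nuclear receptor co-regulators 0 passed in any test, and their median was −0.04. By the brightest probe set, the 2 of smallest p at 23 against 3 months were Ep300, a histone acetyltransferase gene (0.13, limma adjusted p = 0.598), and Smarca4, a chromatin remodelling ATPase gene (−0.11, adjusted p = 0.616). Their other probe sets did not share 1 direction, at −0.02 for Ep300 and 0.15 and −0.14 for Smarca4. The list of steroid supply and stress axis genes had only 2 tested members out of 15. Abcb1a, which encodes the P-glycoprotein pump that limits the entry of some corticosteroids, not of all alike, into the brain, rose from 136 ± 22.6 (SD, n = 9) to 195 ± 54.4 (SD, n = 13), or 1.40-fold (limma adjusted p = 0.0296). Of the old animals 11 of 13 stood above the 3-month mean. Its other probe set differed by 0.21 and did not pass (adjusted p = 0.750). Crhbp, the binding protein of corticotropin-releasing hormone, differed by −0.14 (adjusted p = 0.619).

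In the list of glucocorticoid-induced genes 2 of 26 rose at 23 against 3 months and 0 fell, and 3 had a rising slope, where 2.15% of all probe sets rose, 0.975% fell and 3.14% had a rising slope. The median of the list was 0.07, against −0.0013 over all probe sets. Fam107a, an actin-bundling protein gene of astrocytes and neurons that stress induces, rose 1.18-fold from 5951 ± 457 (SD, n = 9) to 7032 ± 555 (SD, n = 13), with all 13 old animals above the mean of the 3-month group (limma adjusted p = 1.9e-04). Mertk, a phagocytic receptor gene of microglia and astrocytes, rose 1.38-fold from 215.5 ± 50.6 to 290 ± 41.0 (adjusted p = 0.0115), and its other probe set differed by 0.37 (adjusted p = 0.0691). Angptl4, a secreted inhibitor of lipoprotein lipase, went from 142 ± 23.0 to 177 ± 31.4, which passed as a slope (adjusted p = 0.0334) and not as a contrast (adjusted p = 0.0615). Astrocyte and microglial markers were higher at the same age, as given above, and their part in these rises was not tested.

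In the pathway of the Sgk1 kinase 1 of 15 tested genes rose and 0 fell at 23 against 3 months, where 2.15% of all probe sets rose and 0.975% fell. The median was 0.07, against −0.0013 over all probe sets. Wnk1, a kinase gene that works with Sgk1 in the control of ion transport, rose 1.28-fold from 1565 ± 123 (SD, n = 9) to 2009 ± 150 (SD, n = 13), with all 13 old animals above the mean of the 3-month group (limma adjusted p = 1.5e-06). Its other probe set differed by 0.12 and did not pass (adjusted p = 0.534). Nedd4, a ubiquitin ligase gene of the family through which Sgk1 acts on channels, differed by 0.17 and did not pass (adjusted p = 0.116). The other probe set of Nedd4 differed by −0.0086. Ndrg1, which encodes a substrate of the kinase, differed by 0.08 (adjusted p = 0.584), and Foxo3, another substrate gene, by 0.07 (adjusted p = 0.656).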

How the data were processed

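Intensities on a linear scale were deposited by the authors, computed with MAS5 per the submitters' processing notes and brought to a target of 500 by scaling per the series' design text. The MAS5 version is not given in the sources used here, and neither scan dates nor presence calls are used. Of 15923 probe sets, 57 were controls, and of the others 12783 had 1 gene symbol, 312 had several and 2771 had no entry in the annotation. RefSeq (GRCr8) gave current symbols for 12748. No per-sample column was left unused (0). Signals under 16 were set to 16 before log2. One fit of all 49 arrays was made with limma 3.58.1 (lmFit, eBayes with a variance trend; R 4.3.3), with Benjamini-Hochberg adjustment over 9541 probe sets at 0.05. The design text's 23 months was used for the oldest age, which it gives as 25 in one place. Correlations were tested by permutation in numpy 2.4.6, with ranks from scipy 1.17.1 (100000 resamples within ages). With the replicate number as a block, residuals of age and number were resampled and fitted again. On data simulated for the 23 against 3 month contrast of 9541 probe sets, limma recovered 29, 43, 50 and 50 of 50 changes of 0.25, 0.5, 1 and 2 (log2), with 14 false among 186 calls. The changes were planted in randomly drawn probe sets, with independent noise of each one's own SD. These counts therefore do not give the recovery for a probe set as variable as that of Sgk1.

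Members and lists were chosen with earlier results of these data known. Named genes were every probe set of the 6 genes, up to 4 called genes of each list by smallest p (the 2 of smallest p where fewer than 2 were called), and the 5 nearest genes by correlation. Ndrg1 and Foxo3 were chosen after their values were seen. Alternatives covered the floor, filter, scaling, probe set choice, variance model, array weights, replicate number as a block, high-Ttr arrays, the ages compared alone, a plain analysis of variance, and each array left out.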

Additional observations from a re-analysis of the deposited data

Results flagged for a closer look

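In 3 of 28 groups (7 probe sets at the 4 younger ages) 1 animal lay far from the rest of its age by Dixon's criterion, where chance gives about 1 in 20. The second Nr3c1 probe set had a signal of 137.6 in 6 months replicate 1, with a gap to the next animal of 0.68 of the range. Fkbp5 had a signal of 548.3 in 6 months replicate 8, with a gap of 0.698 of the range. Hsd11b1 had a signal of 1514 in 12 months replicate 5, with a gap of 0.493 of the range. No comparison of these 3 probe sets passed with these animals or without them.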

How the results depend on the processing

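Of 511 values of the 7 probe sets under other settings, 508 stayed on their side of the threshold, and 9 uncalled values turned sign (largest size 0.0218). The 3 calls lost were all the slope of Sgk1: with no filter on low signals (adjusted p = 0.0631), without the 5 arrays of high Ttr signal (0.119), and with the replicate number as a block (0.0731). The labels do not say that a number pairs animals. Same-numbered arrays of different ages had a mean r of 0.068 against −0.0065 for others, and 11 of 44 arrays correlated best with their own number. Single pairs ran from −0.129 to 0.362, so not every pair was above 0.1, and what the numbers share was not settled. With the number as a block, 1 induced gene correlated with Sgk1, against 4. Leaving out 1 array at a time gave 11 lost and 2 gained calls among 2401 values, all of Sgk1, with a slope of 0.02214 to 0.02725 per month and a 23 against 3 month difference of 0.4473 to 0.6132. None of 150 pair values was gained or lost.

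Counts of called probe sets moved by over 1.5 times in these cases, whose cause was not tested. At 23 against 3 months 189 passed without the arrays of high Ttr signal, against 298. At 12 against 3 months 37 passed with array weights, against 19. At 9 against 3 months, against 5, there were 3 with no filter, 3 with 1 probe set per gene, 9 with array weights, 1 without the arrays of high Ttr signal and 3 with these ages alone. At 6 against 3 months, against 1, there were 2 without the arrays of high Ttr signal and 0 with these ages alone. At 23 against 12 months 14 passed with these ages alone, against 27. A plain analysis of variance at an unadjusted p of 0.05 held 901, against 169. Leaving out 1 array gave 248 to 321, 16 to 27, 2 to 7, 1, 17 to 34, 141 to 176 (F-test) and 398 to 499 (slope). Array number and, for the second Nr3c1 probe set, low signal limit the precision.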

Other observations

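The correlations of Sgk1 with genes induced by neuronal activity ranged from near 0 to moderate. Of 9 tested immediate early genes, a list added after the neighbours of Sgk1 had been seen, the r with Sgk1 over 49 arrays, age means removed, was 0.39 for Junb, 0.33 for Egr2, 0.32 for Fos and 0.31 for Nr4a1. It was 0.21 for Egr1, 0.14 for Ier2, 0.13 for Arc, 0.13 for Egr4 and 0.02 for Fosb. The median was 0.21, where that of the 26 tested glucocorticoid-induced genes was 0.16 and that of all 8093 genes −0.01. These values were given no test, and the replicate number was not removed from them.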
